A study of Mus musculus with 10 samples.

Results

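The Hippo pathway genes described here are Yap1, Wwtr1, Tead1, Tead2, Tead4, Lats1, Lats2, Ccn1, Ccn2 and Amotl2, chosen by name in RNA sequencing counts from 10 mouse prostate orthografts. They are 10 of the 47069 gene IDs in each count table, and all 10 were among the 17644 genes that passed the filter on low counts. The tumours grew in male CD-1 Nude mice, a strain without a normal thymus, after cells of 1 line had been injected into an anterior prostate lobe. CP2 (4 tumours) and CP1 (3 tumours) are lines from prostate tumours of donors of 8 and 6 months that carried, on 1 allele and in the prostate, a deletion in Ctnnb1 known to stabilise beta-catenin. P1 (3 tumours) is a line from the prostate cancer of a mouse aged 14 months without that deletion. Line, donor age and genotype changed together, and each line stands for a single donor genotype and age, so that these cannot be told apart. The cells were grown as spheroids and then on plastic before injection, and graft and host cells are both mouse, so their transcripts were counted together.

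In the Hippo pathway, the kinases MST1 and MST2 activate LATS1 and LATS2, which phosphorylate the coactivators YAP and TAZ and keep them out of the nucleus. YAP and TAZ that escape phosphorylation bind DNA through the TEAD factors and raise the transcription of targets such as Ccn1, Ccn2 and Amotl2. Transcript counts show neither phosphorylation nor the place of a protein in the cell. In epithelia the pathway is known to respond to cell contact, polarity and mechanical tension.

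Total counts were 18800912 to 20638085 in CP2, 25081535 to 30546426 in CP1 and 28050484 to 37180721 in P1 tumours. Levels are given as CPM, which set each count against its library total after TMM scaling for differences in library composition, and changes as log2 fold changes with their SE. A gene was called changed at a Benjamini-Hochberg adjusted p below 0.05 in edgeR's quasi-likelihood test, and each adjusted p comes from that test, adjusted over all genes tested, unless another is named. Gene coordinates are those of the mouse build GRCm38. The sample title of CP2 replicate 1 reads CP1, but the tissue and source fields read CP2, and it was analysed as CP2. The 8 markers of prostate epithelium summed to 327 to 617 CPM in CP2, 589 to 1004 CPM in CP1 and 6729.6 to 12823 CPM in P1. None of the 8 was at 0 in all tumours, and Krt8, Epcam and Cdh1 were all far lower in both CP lines than in P1. Seminal vesicle transcripts (7 genes) summed to 3.29 to 1585 CPM in CP2, 6.33 to 27.5 CPM in CP1 and 18043 to 167759.5 CPM in P1, highest in P1 replicate 1. Urothelial transcripts (6 genes) summed to 2.14 to 10.8 CPM in CP2, to 58.4, 1351 and 547 CPM in CP1 replicates 1, 2 and 3, and to 23.5 to 48.4 CPM in P1. The part of these transcripts in the results was not tested, and in whole tumours fewer cells of a type cannot be told apart from less RNA per cell.

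Against P1, the CP2 tumours had more of both coactivators and of Tead1, and less Tead2, Tead4, Ccn2 and Amotl2. The CP1 tumours had more Yap1, Wwtr1, Tead1 and Amotl2, and less Tead2 and Tead4. In CP2, 3 of the 10 genes were called higher than in P1, where 28.2% of all genes tested were, and 4 were called lower, against 28.4% (56.7% in either direction). In CP1, 4 were called higher than in P1 and 2 lower, where 22.4% of all genes were called in each direction (44.8% in either). Between CP2 and CP1 directly, 1 was higher and 2 were lower in CP2, against 21.3% and 21.9% of all genes (43.2% in either direction). The tumours did not overlap for 7 of the 10 genes between CP2 and P1 (60.1% of all genes), for 6 between CP1 and P1 (50.8%) and for 6 between CP2 and CP1 (52.3%). The share of these genes that changed was thus near that of all genes, and the results below concern which genes moved and by how much. Both comparisons with P1 use the same 3 P1 tumours.

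**Figure D1:**
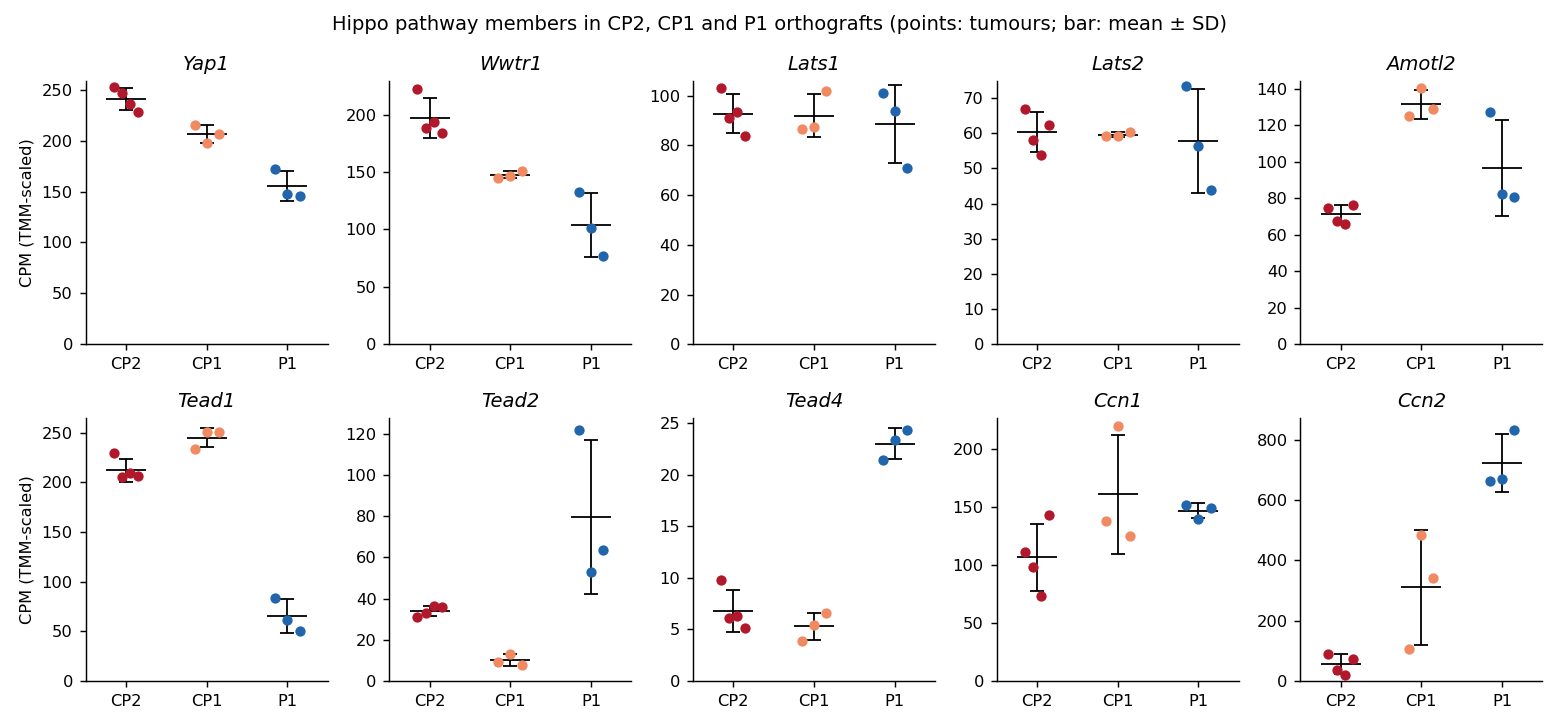
CPM of each of the 10 genes in each tumour (a panel for each gene, linear axes from 0), with CP2, CP1 and P1 from left to right, a point for each tumour and bars for the mean ± SD. Tead1 lies between 205 and 251 CPM in all 7 CP tumours and at or below 83.8 CPM in P1, Tead4 is highest in P1, and Lats1 and Lats2 lie at about the same level in the 3 lines.

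The kinases themselves did not pass the test in any comparison. Lats1 (ENSMUSG00000040021, chr10:7681214-7716460) had 103, 91.1, 93.5 and 83.9 CPM in CP2, 86.5, 87.6 and 102 CPM in CP1, and 101, 93.8 and 70.9 CPM in P1. Its log2 fold change was 0.07 ± 0.13 in CP2 versus P1 (adjusted p = 0.662), 0.06 ± 0.14 in CP1 versus P1 (adjusted p = 0.769) and 0.02 ± 0.13 in CP2 versus CP1 (adjusted p = 0.935). The P1 tumours spanned all but the highest CP2 and CP1 values. Lats2 (ENSMUSG00000021959, chr14:57689662-57758388) had 67.0, 58.1, 53.9 and 62.2 CPM in CP2, 59.1, 59.3 and 60.4 CPM in CP1, and 73.3, 56.4 and 43.7 CPM in P1. Its log2 fold change was 0.06 ± 0.15 in CP2 versus P1 (adjusted p = 0.749) and 0.04 ± 0.16 in CP1 versus P1 (adjusted p = 0.846), and the P1 tumours spanned the values of both CP lines. Without P1 replicates 1 and 2, which leaves a single P1 tumour that is assumed to vary like the other lines, Lats2 was called higher in CP2 (0.43, adjusted p = 0.022) and in CP1 (0.42, adjusted p = 0.0345). Lats2 shares 2955 exon bases with the gene model Gm49361, which is not among the IDs counted, so its count is uncertain. Per length of merged exons, the ratio of Lats2 to Lats1 was 0.681 ± 0.0710 in CP2, 0.681 ± 0.0533 in CP1 and 0.678 ± 0.0707 in P1 (SD, n = 4, 3 and 3), so that the kinases kept the same proportion within the spread of the tumours.

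The coactivators were both higher in the CP lines, and their means ran in the order CP2, CP1, P1. Yap1 (ENSMUSG00000053110, chr9:7931999-8004596), which encodes YAP, had 253, 247, 236 and 228 CPM in CP2, 215, 198 and 207 CPM in CP1, and 172, 148 and 146 CPM in P1. No tumour of one line overlapped another line. The log2 fold change was 0.63 ± 0.09 in CP2 versus P1 (adjusted p = 1.579e-04), 0.41 ± 0.09 in CP1 versus P1 (adjusted p = 0.00424) and 0.22 ± 0.08 in CP2 versus CP1, which missed the threshold (adjusted p = 0.0555). That last difference passed it without P1 replicate 1 (adjusted p = 0.0279), without P1 replicate 3 (adjusted p = 0.0346), in a fit of those 2 lines alone (adjusted p = 0.024), with library totals in place of TMM factors (0.30, adjusted p = 0.00814) and with DESeq2's Wald test (adjusted p = 0.0346).

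Wwtr1 (ENSMUSG00000027803, chr3:57455649-57575910), which encodes TAZ, had 222, 188, 194 and 184 CPM in CP2, 145, 147 and 151 CPM in CP1, and 133, 101 and 77.2 CPM in P1. The lines again did not overlap. The rise in CP2 over P1 was 0.93 ± 0.16 on the log2 scale (adjusted p = 7.752e-04). In CP1 it was 0.51 ± 0.17 (adjusted p = 0.0306), but it missed the threshold without any 1 of 5 tumours: P1 replicate 2 (adjusted p = 0.0905) or 3 (adjusted p = 0.067), or CP1 replicate 1 (adjusted p = 0.0606), 2 (adjusted p = 0.0612) or 3 (adjusted p = 0.072), and in a fit of CP1 and P1 alone (adjusted p = 0.0866). CP2 exceeded CP1 by 0.41 ± 0.16 (adjusted p = 0.0576), a difference that passed the threshold without P1 replicate 1 (adjusted p = 0.0116) or 3 (adjusted p = 0.0124), with library totals (0.49, adjusted p = 0.0137) and with DESeq2's Wald test (adjusted p = 0.0458). Per length of merged exons, the ratio of Wwtr1 to Yap1 was 1.48 to 1.70 in CP2, 1.31 to 1.44 in CP1 and 1.03 to 1.50 in P1. Which of the coactivators stood higher turned with the length used, since with the longest coding transcript the ratio was 0.726 ± 0.0415 in CP2, 0.638 ± 0.0330 in CP1 and 0.587 ± 0.109 in P1 (SD, n = 4, 3 and 3).

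TEAD factors bind the letters GGAATG, or CATTCC on the other strand, and these letters occur in the promoter windows of both coactivators and of Ccn1. The 250 bases before the start of those genes are shown (RefSeq, GRCm38.p6, minus strand), at chr9:8004597-8004846 for Yap1, chr3:57575911-57576160 for Wwtr1 and chr3:145649986-145650235 for Ccn1, with the TEAD letters in capitals. For Lats2 and Amotl2, whose match lies in or beside annotated exons, only the 30 bases around it are shown (chr14:57746102-57746131, minus strand, and chr9:102717727-102717756, plus strand).
Yap1: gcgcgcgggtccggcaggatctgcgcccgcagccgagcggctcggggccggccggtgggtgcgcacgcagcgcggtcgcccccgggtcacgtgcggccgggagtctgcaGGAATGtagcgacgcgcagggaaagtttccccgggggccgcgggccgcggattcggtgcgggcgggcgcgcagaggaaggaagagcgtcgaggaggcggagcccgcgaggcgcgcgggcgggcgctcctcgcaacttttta
Wwtr1: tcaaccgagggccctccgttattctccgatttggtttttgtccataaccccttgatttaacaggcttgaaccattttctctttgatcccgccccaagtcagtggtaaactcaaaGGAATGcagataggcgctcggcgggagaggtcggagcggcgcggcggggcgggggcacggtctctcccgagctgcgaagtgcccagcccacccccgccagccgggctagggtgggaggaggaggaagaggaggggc
Ccn1: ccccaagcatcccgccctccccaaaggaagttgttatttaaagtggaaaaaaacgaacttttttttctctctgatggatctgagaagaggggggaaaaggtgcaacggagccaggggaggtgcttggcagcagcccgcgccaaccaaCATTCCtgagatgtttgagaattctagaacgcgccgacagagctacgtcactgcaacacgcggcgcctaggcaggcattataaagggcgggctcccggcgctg
Lats2: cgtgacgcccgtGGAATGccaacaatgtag
Amotl2: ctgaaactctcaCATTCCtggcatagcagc
Of the 10 genes, 7 had a promoter entry, and 5 held the letters in any window from 250 bases before to 50 after a start. Wwtr1 and Lats2 had several windows, and another Lats2 window held no match. Of all 32851 promoter windows, 14.7% held the letters, a share of single windows and not of genes. Tead2 and Lats1 held none. The letters ATCAAAG, which TCF and LEF factors bind together with beta-catenin, occurred in the windows of Wwtr1 and Amotl2 and in 3.73% of all windows on either strand. The AP-1 letters TGAGTCA occurred in none of the 7 genes and in 5.20% of all windows. A match describes the letters of a window and not binding.

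The TEAD genes, which encode the DNA-binding partners of YAP and TAZ, changed in opposite directions. Tead1 (ENSMUSG00000055320, chr7:112679318-112906807) had 229.6, 205, 209 and 206 CPM in CP2, 234, 251 and 250.5 CPM in CP1, and 83.8, 61.4 and 50.0 CPM in P1. Every CP tumour was above every P1 tumour. The log2 fold change was 1.71 ± 0.16 in CP2 versus P1 (adjusted p = 1.328e-05) and 1.91 ± 0.16 in CP1 versus P1 (adjusted p = 1.372e-05), and CP2 and CP1 did not differ at the threshold (-0.21 ± 0.15, adjusted p = 0.279) although their tumours did not overlap. The difference between the CP lines passed it in a fit of CP2 and CP1 alone (-0.22, adjusted p = 0.0244) and without P1 replicates 1 and 2 (-0.21, adjusted p = 0.0344).

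Tead2 (ENSMUSG00000030796, chr7:45215753-45233644), the TEAD known for its expression in the early mouse embryo, had 31.1, 33.1, 36.5 and 35.7 CPM in CP2, 9.29, 13.2 and 7.57 CPM in CP1, and 122, 52.8 and 63.7 CPM in P1. The 3 lines did not overlap, with CP1 lowest and P1 highest. Tead2 fell by 1.22 ± 0.27 on the log2 scale in CP2 versus P1 (adjusted p = 0.00344) and by 2.99 ± 0.32 in CP1 versus P1 (adjusted p = 4.929e-05). CP2 exceeded CP1 by 1.76 ± 0.29 (adjusted p = 0.00105), which is the direct test between the CP lines. P1 replicate 1 had the highest Tead2 level of all tumours. Among the P1 tumours it also held the most seminal vesicle, smooth muscle, fibroblast, endothelial, urothelial and skeletal muscle transcripts (summed markers). It held the fewest prostate epithelial transcripts, and the part of these cell types was not tested. Without P1 replicate 1 the log2 fold change of Tead2 in CP2 versus P1 was -0.79 (adjusted p = 0.0062). Without P1 replicates 1 and 2, the log2 fold change of Tead2 against the remaining P1 tumour was -0.93 in CP2 (adjusted p = 0.0124) and -2.70 in CP1 (adjusted p = 1.610e-04). Tead2 has 13 exon bases opposite the antisense gene Cd37.

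Tead4 (ENSMUSG00000030353, chr6:128224288-128300823), known in the mouse for its part in the trophectoderm of the early embryo, had 9.77, 6.09, 6.25 and 5.12 CPM in CP2, 3.89, 5.39 and 6.56 CPM in CP1, and 21.4, 23.3 and 24.3 CPM in P1. P1 lay above both CP lines, which overlapped each other. Tead4 fell by 1.76 ± 0.24 on the log2 scale in CP2 versus P1 (adjusted p = 1.525e-04) and by 2.12 ± 0.26 in CP1 versus P1 (adjusted p = 1.249e-04), and CP2 versus CP1 gave 0.37 ± 0.24 (adjusted p = 0.246). The calls of Tead1, Tead2 and Tead4 against P1 were kept in every alternative run, those without 1 or 2 tumours included.

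Tead3, the fourth family member, had 28.9, 24.8, 23.6 and 25.8 CPM in CP2, 38.3, 41.3 and 58.0 CPM in CP1, and 38.3, 26.3 and 25.9 CPM in P1. On the log2 scale CP2 lay below CP1 (-0.83 ± 0.18, adjusted p = 0.00436), CP1 was higher than P1 by 0.60 ± 0.19 (adjusted p = 0.0267), and CP2 versus P1 did not pass the test (-0.23 ± 0.18, adjusted p = 0.305). The rise of Tead3 in CP1 was lost without P1 replicate 2 (adjusted p = 0.106), P1 replicate 3 (adjusted p = 0.0925) or CP1 replicate 3 (adjusted p = 0.105), and its difference between the CP lines without CP1 replicates 2 and 3 (-0.57, adjusted p = 0.101).

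Set per length of merged exons (CPM per kilobase, RPKM), the 4 TEAD genes summed to 28.5 ± 1.34 RPKM in CP2, 28.5 ± 2.31 RPKM in CP1 and 32.3 ± 9.59 RPKM in P1 (SD, n = 4, 3 and 3). P1 replicate 1, at 43.3 RPKM, was above all other tumours, and the other 2 P1 tumours lay at 25.9 and 27.6 RPKM, next to the CP tumours. Within this sum Tead1 held 54.4% to 55.6% in CP2 and 60.5% to 66.4% in CP1, against 13.4% to 17.4% in P1. Tead2 held 21.3% to 27.0% in CP2 and 5.19% to 9.52% in CP1, against 42.5% to 58.8% in P1. Tead3 held 12.4% to 14.1% in CP2 and 21.3% to 28.3% in CP1, against 13.2% to 15.1% in P1. Tead4 held 5.10% to 8.92% in CP2 and 4.16% to 5.98% in CP1, against 13.7% to 24.9% in P1. The main TEAD transcript was therefore Tead1 in all 7 CP tumours and Tead2 in all 3 P1 tumours. The ratio of Tead1 to Tead2 per length was 2.02 to 2.61 in CP2, 6.73 to 11.7 in CP1 and 0.242 to 0.410 in P1. With the length of the longest coding transcript in place of merged exons, the mean Tead1 share was 49.7% in CP2, 54.0% in CP1 and 13.7% in P1. On that length Tead3 held 32.5% to 41.5% in CP1, and CP1 replicate 3 had 49.9% Tead1 and 41.5% Tead3.

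**Figure D2:**
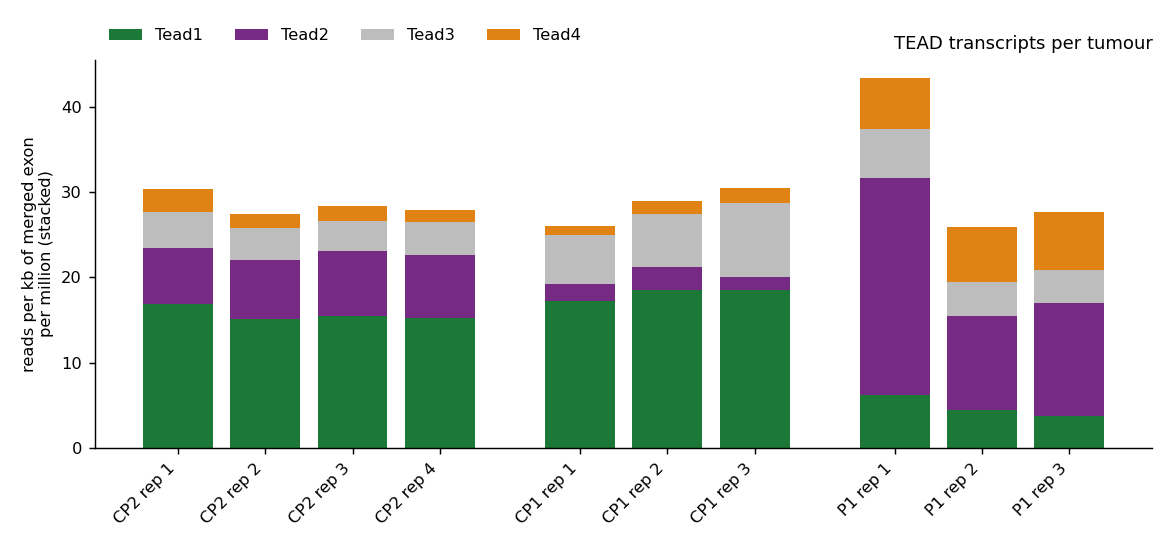
Stacked levels per length (RPKM on merged exons) of Tead1, Tead2, Tead3 and Tead4, with CP2, CP1 and P1 from left to right. Each bar is a tumour, and its height is the summed TEAD level. Tead1 makes up at least 54.4% of the bar in the CP2 and 60.5% in the CP1 tumours. In the P1 tumours it makes up at most 17.4%, and Tead2 42.5% to 58.8%.

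Ccn1 (also Cyr61) and Ccn2 (also Ctgf) encode secreted matricellular proteins of 1 family and are among the most used readouts of YAP and TAZ. Ccn2 (ENSMUSG00000019997, chr10:24595442-24598683) had 90.9, 37.0, 20.9 and 74.2 CPM in CP2, 107, 484 and 343 CPM in CP1, and 664, 671 and 833 CPM in P1. The lines did not overlap, and within CP1 and CP2 the tumours lay several-fold apart. Ccn2 fell by 3.70 ± 0.57 on the log2 scale in CP2 versus P1 (adjusted p = 3.663e-04), which is 13.0-fold lower. In CP1 versus P1 the log2 fold change was -1.21 ± 0.58 and missed the threshold (adjusted p = 0.116), although every CP1 tumour was below every P1 tumour. Between the CP lines, CP2 lay below CP1 (-2.48 ± 0.55, adjusted p = 0.00496). Ccn2 has 665 exon bases opposite the antisense gene Gm15270, which had 145 counts over all tumours together.

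Within CP1, Ccn2 was lowest in replicate 1, which also held the fewest smooth muscle, urothelial, basal and prostate epithelial transcripts. The fibroblast markers went the other way, at 23695, 17242 and 15240.3 CPM in CP1 replicates 1, 2 and 3. The 8 smooth muscle markers, among them Acta2, Myh11 and Cnn1, summed to 315, 270.1, 297 and 548 CPM in CP2, to 659, 3141 and 4823 CPM in CP1 replicates 1, 2 and 3, and to 2984, 1300.0 and 1023 CPM in P1. None was at 0 in all tumours. All 8 were called lower in CP2 than in CP1, 7 of 8 were called lower in CP2 than in P1, and between CP1 and P1 only Smtn was called, higher in CP1. Of all genes tested, 21.9% were called lower in CP2 than in CP1 and 28.4% lower in CP2 than in P1. Between CP1 and P1, 44.8% were called in either direction. The 4 basal epithelial markers (Krt5, Krt14, Krt15 and Trp63) summed to 80.5 to 154 CPM in CP2, to 66.1, 946 and 611 CPM in CP1 replicates 1, 2 and 3, and to 196 to 384 CPM in P1, with none at 0 in all tumours. Between CP1 replicates 2 and 3, Ccn2 and the basal and urothelial sums were higher in replicate 2 and the smooth muscle sum in replicate 3. Of the basal markers, Krt14 went the other way, at 13.6 CPM in replicate 2 and 22.6 CPM in replicate 3. In P1 the tumour with the least smooth muscle, replicate 3, had the most Ccn2. That tumour also held the most prostate epithelial and basal and the fewest fibroblast transcripts of the P1 tumours (summed markers). Without CP1 replicates 2 and 3, which leaves a single CP1 tumour assumed to vary like the other lines, Ccn2 was lower in CP1 than in P1 (-2.75, adjusted p = 0.0302) and no longer differed at the threshold between CP2 and CP1 (-0.95, adjusted p = 0.298). The part of smooth muscle, basal, urothelial, prostate epithelial and fibroblast cells in the Ccn2 differences was not tested.

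**Figure D3:**
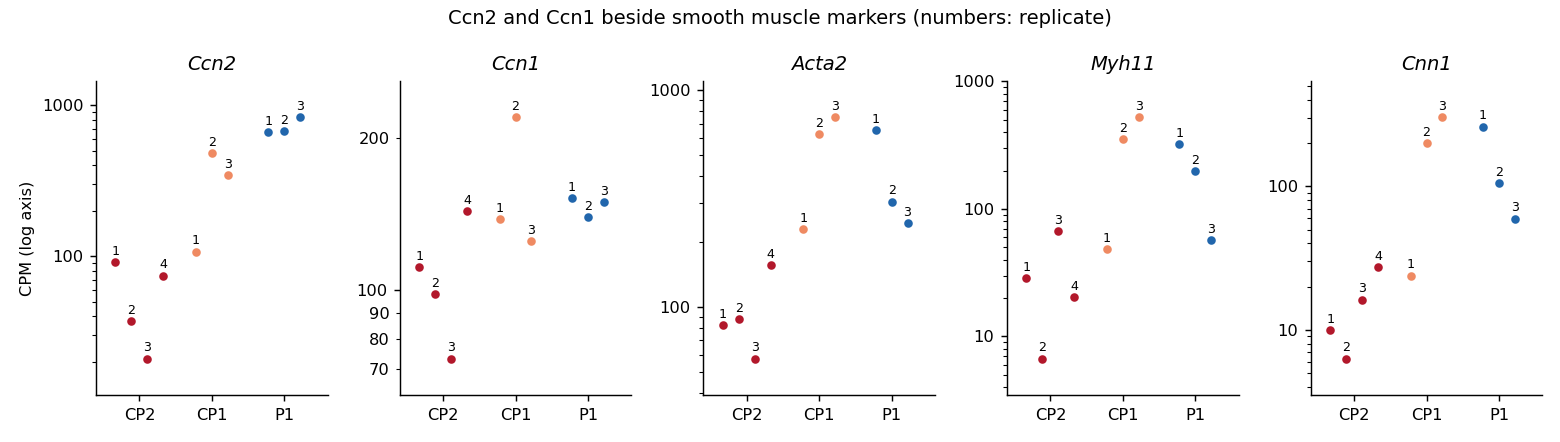
CPM (log axes) of Ccn2, Ccn1 and the smooth muscle markers Acta2, Myh11 and Cnn1 in each tumour, with CP2, CP1 and P1 from left to right and the replicate number above each point. CP1 replicate 1 is low in Ccn2 and in the 3 markers, whereas P1 replicate 3 has the highest Ccn2 and the lowest markers of its line.

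Ccn1 (ENSMUSG00000028195, chr3:145646976-145649981) had 111, 98.3, 73.2 and 143 CPM in CP2, 138, 219.5 and 125 CPM in CP1, and 152, 139.5 and 149 CPM in P1. CP2 replicate 4 overlapped CP1 and P1, and the other CP2 tumours were below both. Ccn1 did not pass the test in CP2 versus P1 (-0.46 ± 0.23, adjusted p = 0.116), in CP1 versus P1 (0.13 ± 0.25, adjusted p = 0.699) or in CP2 versus CP1 (-0.60 ± 0.23, adjusted p = 0.0629). Without CP2 replicate 4 it was called lower in CP2 than in P1 (-0.64, adjusted p = 0.0391) and than in CP1 (-0.77, adjusted p = 0.0255), and without CP1 replicate 3 it was also called lower in CP2 than in CP1 (-0.75, adjusted p = 0.0425). The value was nearer to 0, at -0.32, in CP2 versus P1 without CP2 replicate 3 (adjusted p = 0.247), and at -0.31 in CP2 versus CP1 without CP1 replicate 2 (adjusted p = 0.29). The ratio of Ccn2 to Ccn1 per length was 0.202 to 0.577 in CP2, 0.547, 1.56 and 1.94 in CP1 replicates 1, 2 and 3, and 3.09 to 3.95 in P1. CP1 replicate 1 lay among the CP2 tumours in this ratio, and every CP tumour was below every P1 tumour.

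Amotl2 (ENSMUSG00000032531, chr9:102716672-102733418) encodes an angiomotin, a junction protein that binds YAP and is itself induced by YAP and TAZ. It had 74.7, 67.4, 65.7 and 76.5 CPM in CP2, 125, 140.4 and 129 CPM in CP1, and 127, 82.4 and 80.7 CPM in P1. CP1 and CP2 stood apart, and P1 replicate 1 lay within CP1 while the other P1 tumours lay between the CP lines. On the log2 scale CP2 lay below CP1 (-0.89 ± 0.15, adjusted p = 0.00121), a call kept in every alternative run. CP2 was also lower than P1 (-0.44 ± 0.15, adjusted p = 0.0295), a call lost without P1 replicate 1 (-0.22, adjusted p = 0.075), CP2 replicate 2 (adjusted p = 0.0722) or CP2 replicate 3 (adjusted p = 0.0745), and with library totals in place of TMM (-0.27, adjusted p = 0.0863), and without P1 replicates 1 and 2 (-0.21, adjusted p = 0.162). The rise in CP1 over P1 (0.44 ± 0.16, adjusted p = 0.0483) was lost when any 1 of the 9 tumours other than P1 replicate 1 was left out (adjusted p up to 0.177), with DESeq2's size factors (adjusted p = 0.0563) or with no filter (adjusted p = 0.062), and without P1 replicate 1 it was 0.67 (adjusted p = 6.363e-04).

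**Figure D4:**
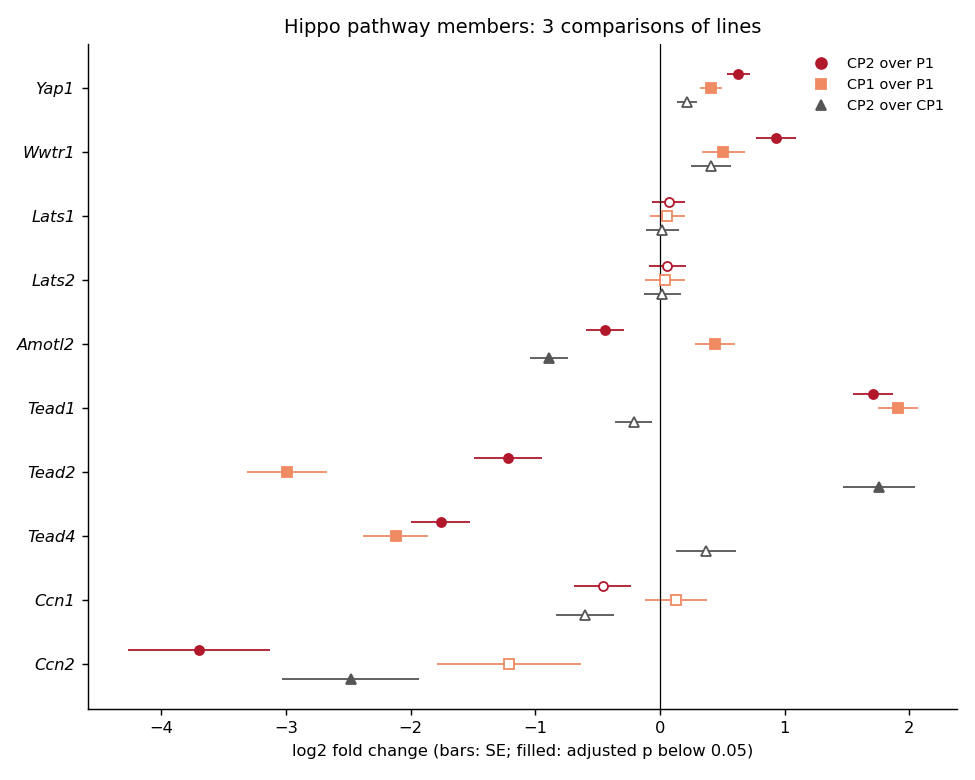
Log2 fold change of each of the 10 genes in CP2 versus P1, CP1 versus P1 and CP2 versus CP1, with bars of 1 SE and filled points where the adjusted p is below 0.05. Tead1 is higher by 1.71 and 1.91 in CP2 and CP1, Tead2 and Tead4 are lower in both, and Ccn2 has the lowest value, -3.70 in CP2 versus P1.

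Per length of merged exons, the order of the 10 genes also differed between the lines. In CP2 Ccn1 (52.7 RPKM) and Wwtr1 (41.2 RPKM) came first and their tumours overlapped, followed by Yap1 (26.0 RPKM) and Ccn2 (19.5 RPKM), which overlapped too, and Tead4 (1.89 RPKM) came last. In CP1 Ccn2 (109 RPKM) and Ccn1 (79.6 RPKM) came first with overlapping tumours, followed by Wwtr1 (31.0 RPKM), and Tead2 (2.09 RPKM) and Tead4 (1.47 RPKM) overlapped at the bottom. In P1 Ccn2 (253 RPKM) stood above Ccn1 (72.7 RPKM) and Ccn1 above Wwtr1 (21.7 RPKM) without overlap, and Tead1 (4.80 RPKM) came last, overlapping Tead4 (6.39 RPKM). With the longest coding transcript Yap1 stood above Wwtr1 in each line, at 57.8, 49.5 and 37.2 RPKM in CP2, CP1 and P1, while Ccn2 and Ccn1 still came first in CP1 and P1, and Tead4 in CP2 and CP1 and Tead1 in P1 still came last.

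Upstream of LATS, genes of the pathway changed in both directions. Of 22 genes for the MST kinases and their adaptors, junction and polarity regulators and further kinases, 8 were called higher and 8 lower in CP2 than in P1, 8 higher and 9 lower in CP1 than in P1, and 7 higher and 5 lower in CP2 than in CP1. The shares of all genes tested that were called higher and lower were 28.2% and 28.4%, 22.4% each, and 21.3% and 21.9% in these comparisons. The median log2 fold change of the list was 0.07, -0.09 and 0.14 in these comparisons, beside 0.00, -0.01 and -0.01 over all genes tested. Amotl1, an angiomotin like Amotl2, had 479 to 601 CPM in CP2 and 321 to 357 CPM in CP1, against 65.1 to 135 CPM in P1, which is 2.49 ± 0.23 and 1.89 ± 0.24 on the log2 scale (adjusted p = 1.494e-05 and 1.352e-04). Frmd6, a FERM protein related to Drosophila Expanded, rose by 1.96 ± 0.20 in CP2 and 1.47 ± 0.21 in CP1 over P1 (adjusted p = 2.880e-05 and 2.936e-04). Stk3, which encodes MST2, rose by 0.92 ± 0.09 in CP2 and 1.39 ± 0.10 in CP1 (adjusted p = 2.815e-05 and 5.167e-06).

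Wwc1, which encodes the LATS-activating scaffold KIBRA, had 42.8 to 58.8 CPM in CP2 and 27.6 to 60.4 CPM in CP1, against 236 to 241 CPM in P1. It fell by 2.22 ± 0.22 and 2.43 ± 0.25 on the log2 scale (adjusted p = 2.215e-05 and 3.715e-05). Ajuba, a LIM protein that restrains LATS, fell by 1.51 ± 0.10 in CP2 and by 1.03 ± 0.10 in CP1 against P1 (adjusted p = 1.552e-06 and 3.380e-05). The related scaffold Wwc2 had 118 to 147 CPM in CP2, 41.2 to 49.2 CPM in CP1 and 84.0 to 145 CPM in P1, so that CP1 stood below the other lines (CP2 versus CP1 1.49 ± 0.17, adjusted p = 1.287e-04). The angiomotin Amot had 29.9 to 41.0 CPM in CP2, against 9.44 to 10.7 CPM in CP1, and CP2 exceeded CP1 by 1.81 ± 0.24 (adjusted p = 3.285e-04). The 3 angiomotin genes thus differed between the CP lines in different ways, with Amot and Amotl1 higher in CP2 (Amotl1 by 0.61 ± 0.22, adjusted p = 0.0441) and Amotl2 lower. The Amotl1 difference was lost when any 1 of the 7 CP tumours was left out (adjusted p 0.0623 to 0.118). Nf2, the tumour suppressor Merlin, had 137 to 144 CPM in CP2, 120.0 to 129 CPM in CP1 and 127 to 135 CPM in P1 and was called in no comparison.

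Of Tead3 and the Vgll cofactors that share the TEADs with YAP and TAZ, 4 of 5 genes were tested, with Vgll2 below the filter. Vgll4, which competes with YAP for TEAD binding, had 141 to 159 CPM in CP2, 70.7 to 98.6 CPM in CP1 and 68.7 to 98.3 CPM in P1. It was higher in CP2 than in P1 by 0.79 ± 0.14 on the log2 scale (adjusted p = 0.00104) and than in CP1 by 0.77 ± 0.14 (adjusted p = 0.00195), and CP1 did not differ from P1 at the threshold (0.02 ± 0.15, adjusted p = 0.943). Without CP1 replicates 2 and 3 the Vgll4 difference between the CP lines was 0.59 (adjusted p = 0.0602). Vgll3 was lower in CP2, at 1.46 to 4.47 CPM, than in P1, at 5.04 to 17.1 CPM (-1.79 ± 0.56, adjusted p = 0.0199), a call lost without P1 replicate 1 (-1.20, adjusted p = 0.101) or CP2 replicate 3 (adjusted p = 0.0511). Vgll1, chosen after its values were seen, had 145 counts over the CP2 tumours, 100 over the CP1 tumours and 0 in P1. Its level was low, at 1.29 to 2.33 CPM in CP2 and 0.424 to 2.08 CPM in CP1. Against a floor of 3 counts over the P1 tumours, the pooled level was at least 53.4-fold higher in CP2 and 36.6-fold higher in CP1. These bounds leave out the spread between tumours.

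Other genes known as YAP and TAZ targets also parted into both directions. Of 18 such genes, without Ccn1, Ccn2 and Amotl2, 8 were called higher and 9 lower in CP2 than in P1, 7 higher and 8 lower in CP1 than in P1, and 3 higher and 8 lower in CP2 than in CP1. Of all genes tested, 28.2% were called higher and 28.4% lower in CP2 than in P1, 22.4% each way in CP1 than in P1, and 21.3% and 21.9% in CP2 than in CP1. The median log2 fold changes of the 18 genes were -0.43, 0.04 and -0.32, beside 0.00, -0.01 and -0.01 over all genes. Axl, a receptor tyrosine kinase, had 582 to 673 CPM in CP2 and 596 to 683 CPM in CP1, against 99.1 to 192 CPM in P1, a rise of 2.26 ± 0.22 and 2.25 ± 0.23 on the log2 scale (adjusted p = 2.195e-05 and 4.180e-05). Tgfb2, a TGF-beta ligand, had 162 to 188 CPM in CP2, 53.8 to 63.2 CPM in CP1 and 31.7 to 53.1 CPM in P1, and exceeded P1 by 2.13 ± 0.18 in CP2 (adjusted p = 8.932e-06) and by 0.61 ± 0.18 in CP1 (adjusted p = 0.0207). The Tgfb2 call in CP1 was lost without P1 replicate 2 (adjusted p = 0.0816) or 3 (adjusted p = 0.0716) or CP1 replicate 1 (adjusted p = 0.0545) or 2 (adjusted p = 0.0569). Foxf2, a forkhead factor, was highest in CP1, at 35.6 to 53.6 CPM, against 5.27 to 9.24 CPM in P1 (2.54 ± 0.22, adjusted p = 1.552e-05).

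The targets that fell were led by Fjx1 and F3. Fjx1, related to the Drosophila four-jointed kinase of the Fat and Dachsous branch, had 0.925 to 1.72 CPM in CP2 and 1.77 to 3.80 CPM in CP1, against 31.3 to 53.7 CPM in P1. Its log2 fold change was -5.14 ± 0.33 in CP2 and -3.90 ± 0.34 in CP1 versus P1 (adjusted p = 1.780e-06 and 1.676e-05). F3, which encodes tissue factor, had 2.75 to 4.27 CPM in CP2 and 6.85 to 10.5 CPM in CP1, against 55.1 to 140.0 CPM in P1, a log2 fold change of -4.94 ± 0.33 and -3.64 ± 0.34 (adjusted p = 2.065e-06 and 2.403e-05). Nuak2, a kinase of the AMPK family, fell by 2.90 ± 0.17 in CP2 and by 2.13 ± 0.18 in CP1 (adjusted p = 9.576e-07 and 1.275e-05). Fjx1, F3 and Nuak2 were also lower in CP2 than in CP1, with log2 fold changes of -1.24 ± 0.33, -1.30 ± 0.31 and -0.77 ± 0.17 (adjusted p = 0.0122, 0.00765 and 0.00431). Between the CP lines the Fjx1 call was lost without CP1 replicate 2 (-1.01, adjusted p = 0.0528), and without CP1 replicates 2 and 3 both the Fjx1 (-0.50, adjusted p = 0.423) and the F3 call (-0.97, adjusted p = 0.169) were lost. Myof, a membrane repair protein, had 335 to 469 CPM in CP2, 379 to 522 CPM in CP1 and 429 to 479.8 CPM in P1 and was called in no comparison. The epithelial markers that fell in the CP lines moved with these genes, and their part was not tested.

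**Figure D5:**
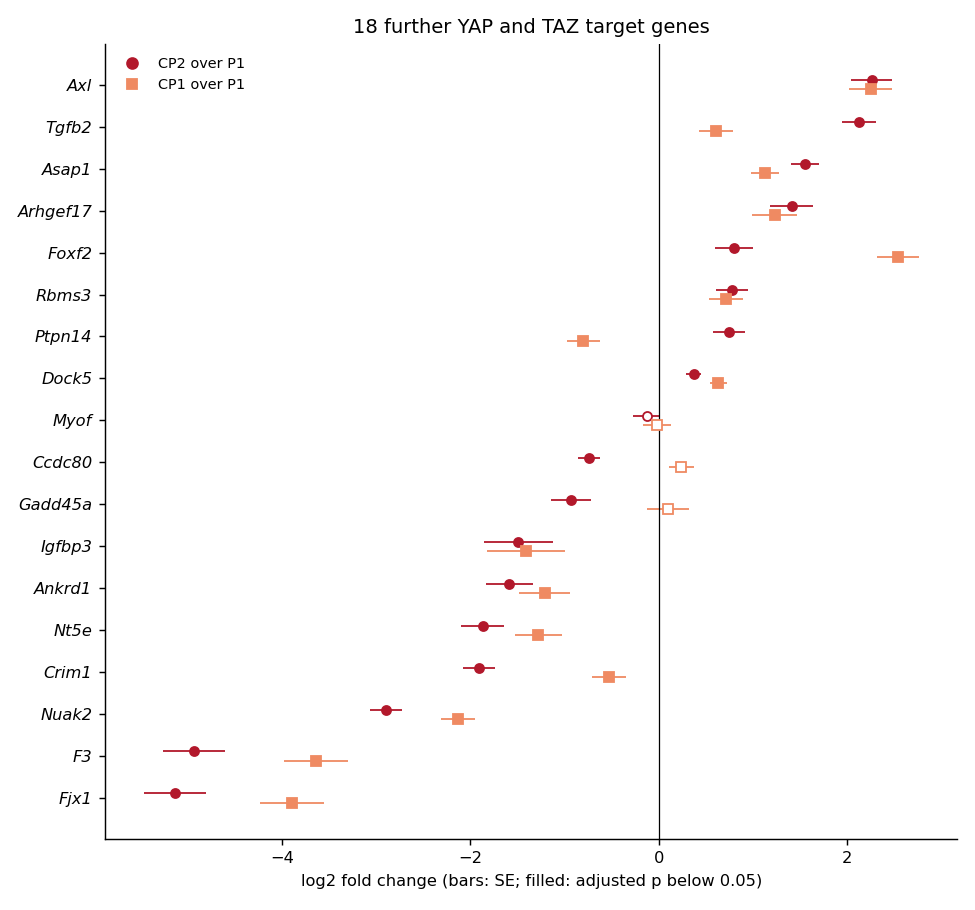
Log2 fold change, with bars of 1 SE, of the 18 further YAP and TAZ targets in CP2 versus P1 and CP1 versus P1, with filled points where the adjusted p is below 0.05. Axl is higher by 2.26 and 2.25 in CP2 and CP1, while Fjx1 stands at -5.14 and -3.90 and F3 at -4.94 and -3.64.

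Among the other CCN genes, Ccn5 was higher in both CP lines than in P1, and Ccn4 was higher in CP1. Of 4 such genes 3 were tested, with Ccn6 below the filter. Ccn5, which encodes a family member without the C-terminal domain, had 179.8 to 271 CPM in CP2 and 71.3 to 148 CPM in CP1, against 4.37 to 8.01 CPM in P1, a rise of 5.35 ± 0.35 and 4.35 ± 0.34 on the log2 scale (adjusted p = 1.823e-06 and 7.915e-06). Ccn4, known as a target of Wnt signalling, had 22.2 to 43.6 CPM in CP2, 124 to 205 CPM in CP1 and 13.0 to 30.9 CPM in P1. It rose in CP1 over P1 (3.06 ± 0.37, adjusted p = 1.128e-04) and was lower in CP2 than in CP1 (-2.30 ± 0.33, adjusted p = 4.225e-04). Ccn3 was called in no comparison. The 9 fibroblast markers summed to 8174 to 10071 CPM in CP2, 15240.3 to 23695 CPM in CP1 and 4876 to 9629.9 CPM in P1, with none at 0 in all tumours. Like Ccn4 their sum was highest in CP1, while Ccn5 was highest in CP2, where the sum overlapped P1. The single markers parted. Against CP1, 3 (Dpt, Pdgfra and Pdgfrb) were called higher in CP2, like Ccn5, and 4 (Col1a1, Col1a2, Col3a1 and Lum) lower. Of all genes tested, 21.3% and 21.9% were. Against P1, 5 of the 9 were called higher in CP2 and 3 lower, where 28.2% and 28.4% of all genes were. The part of fibroblasts was not tested.

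Of 12 immediate early genes, which like Ccn1 and Ccn2 respond within a short time to serum, 8 were called lower in CP2 than in P1 and 6 lower in CP1 than in P1, where 28.4% and 22.4% of all genes tested were. Between CP2 and CP1, 3 were called higher and 2 lower in CP2, against 21.3% and 21.9% of all genes. Their median log2 fold changes were -0.86, -0.76 and -0.04 in these comparisons, beside 0.00, -0.01 and -0.01 over all genes. Fos fell by 2.17 ± 0.39 in CP2 and by 2.28 ± 0.43 in CP1 (adjusted p = 9.583e-04 and 0.00173). Jun had 129 to 148 CPM in CP2 and 102 to 157 CPM in CP1, against 233 to 260.5 CPM in P1. Ctnnb1 itself had 937 to 1044 CPM in CP2 and 917 to 1172 CPM in CP1, against 1798 to 1953 CPM in P1, and fell by 0.90 ± 0.11 and 0.81 ± 0.12 on the log2 scale (adjusted p = 6.671e-05 and 3.094e-04). Counts over the whole gene do not show whether its deleted part was transcribed, and Ctnnb1 has exon bases opposite the antisense gene Ulk4.

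For a description of patterns over the 10 tumours, genes averaging 5 CPM or more were ranked by the root mean square difference of log2(CPM + 0.5), centred per gene on the mean of the 3 line means, from Yap1, Ccn1 and Ccn2 (11980 genes compared). Nearest to Yap1 were Zbtb2, Nprl3 and Snx2, each 0.06 away. Nearest to Ccn1 were Gimap6 (0.18), Susd1 (0.23) and Msrb1 (0.24). Nearest to Ccn2 were Wfdc1 (0.44), Tbc1d2 (0.44) and Syt8 (0.52), so the nearest patterns lay farther from Ccn2 than those listed for Yap1 and Ccn1 did from these genes.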

How the data were processed

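RNA from 10 orthografts was sequenced, and what was deposited for each tumour is a table of raw read counts per Ensembl gene ID. The submitters' processing notes name the build GRCm38.p3 and, in no stated order or role, HTSeq 0.6.0, DESeq2 1.14.1, R 3.2.3, Bowtie2 2.2.6.0, TopHat2 2.1.0 and FastQC 0.11.4. The use of strand in libraries or counting is not stated in these sources, which leaves overlapping and antisense genes uncertain. Of 47069 IDs, 46488 matched a symbol in the reference annotation and 581 did not.

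Counts were tested with edgeR 4.0.16 (limma 3.58.1, R 4.3.3), with TMM factors, filterByExpr (minimum count 10, minimum total 15) and a robust quasi-likelihood fit of 17644 genes with a mean per line. The spread was thus estimated over all lines together. Threshold: Benjamini-Hochberg adjusted p below 0.05. The test was first run on simulated counts with known changes. Per-length levels divide CPM by merged exon length. Alternatives were DESeq2 1.42.0, other scalings, no filter, fits of 2 lines, and tumours left out. The labels tie no library to its own animal, so p-values measure the spread between these samples, which may be technical. Depth limits the precision of rare transcripts, most in CP2.

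Groups come from the tissue and source labels. The 10 genes, the lists, tests and alternatives were chosen with earlier results of these data known. Named beside the 10 genes were, per list and comparison with P1, up to 3 called genes a direction with the largest change (mean of at least 5 CPM, no overlap of tumours), the highest gene called in neither, Tead3, Ctnnb1, and the nearest patterns; the text gives only some of them. Wwc2 and Amot values between the CP lines and Vgll1 were added after values were seen. Promoters are RefSeq windows (GRCm38.p6), searched on both strands for the TEAD, TCF/LEF and AP-1 letters given with the results. Part of the donor genotypes is not reported here.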

Additional observations from a re-analysis of the deposited data

Results flagged for a closer look

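Each of 42 named genes was examined in CP2, the line with 4 tumours, for a tumour that stands apart from the others. This was so for Tgfb2, where CP2 replicate 1 had 188 CPM against 162 to 166 CPM in the other CP2 tumours. Chance gives such a gap in about 1 in 20 groups.

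The effects of the CP lines against P1 differed from each other by the direct test between CP2 and CP1 (edgeR's quasi-likelihood test with Benjamini-Hochberg adjustment) for Tead2 by 1.76 on the log2 scale (adjusted p = 0.00105), for Ccn2 by -2.48 (adjusted p = 0.00496) and for Amotl2 by -0.89 (adjusted p = 0.00121). All 4 CP2 tumours lay outside the 3 CP1 tumours for each of these genes. For Ccn2 the difference was smaller, at -0.95, without CP1 replicates 2 and 3. By summed markers, CP1 replicates 2 and 3 held more smooth muscle, urothelial, basal and prostate epithelial transcripts than CP1 replicate 1. They held fewer fibroblast transcripts than CP1 replicate 1.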

How the results depend on the processing

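The calls of Yap1, Tead1, Tead2 and Tead4 in both CP lines against P1, of Wwtr1 and Ccn2 in CP2 against P1, and of Tead2 and Amotl2 between the CP lines kept direction and threshold under every alternative run. Members called higher in CP1 versus P1 numbered 2 in a fit of those 2 lines and without CP1 replicates 2 and 3, and 2 to 4 over single tumours left out. Members higher in CP2 versus CP1 numbered 3 with library totals only, with DESeq2's Wald test, in a fit of those 2 lines and without P1 replicates 1 and 2, and 1 to 3 over single tumours left out. Without CP1 replicates 2 and 3, 1 member was lower in CP2 versus CP1, and 2104 genes were higher and 2073 lower, where the lone CP1 tumour is assumed to vary like the other lines. With the longest coding transcript, the mean Tead1 share was 49.7% in CP2 and 54.0% in CP1, an alternative chosen after seeing the data.

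Library totals moved the median of all genes in CP2 versus P1 by 0.15 (log2) and gave 6120 genes higher and 3970 lower (60.7% of calls higher), against 4984 and 5013 (49.9%) with TMM.

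Values near 0 that the main test did not call changed sign, and none of the values of the other sign was called. Over single tumours left out, Lats1 ran from -0.09 to 0.14 in CP1 versus P1, from -0.08 to 0.16 in CP2 versus P1 and from -0.04 to 0.09 in CP2 versus CP1, Lats2 from -0.13 to 0.23, from -0.12 to 0.25 and from -0.04 to 0.07, and Ccn1 in CP1 versus P1 from -0.16 to 0.29. Without CP1 replicates 2 and 3, Lats1 was -0.03 and Ccn1 -0.08 in CP1 versus P1. With no filter, Lats1 and Lats2 were -0.02 in CP2 versus CP1. The cause was not tested. No paired analysis was possible because the titles give no number that pairs tumours across lines.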
